A study of Bos taurus with 15 samples.

Results

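The acute phase of the response to dexamethasone (DEX), a synthetic glucocorticoid, was compared with the tissue before and after it: the 12 and 24 h mammary biopsies of each cow were set against the same cow's 0 and 72 h biopsies. The comparison used 12 of the 15 libraries of the series, namely all libraries of cows 2, 3 and 4, with 6 libraries on each side of the contrast. Within each cow the mean log2(normalized count + 0.5) of the 12 and 24 h libraries (the acute libraries) was reduced by the mean of the 0 and 72 h libraries (the flanking libraries), and these differences were averaged over the 3 cows. All animals were Holstein cows, not pregnant and in lactation number 2, at an average of 55 days in milk (range 40 to 64), and every one received a single intramuscular dose of 40 mg DEX and ampicillin over the biopsy days. No cow went without DEX, so there is no untreated animal to compare with. Cow 1 had libraries at 0, 12 and 24 h, none at 72 h, and was left out of the test.

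The biopsies moved around the udder in the same order in every cow: 0 h from the left rear gland (QTR1), 12 h from the left front (QTR2), 24 h from QTR3, which the labels write as left right and which is taken here as right front, and 72 h from the right rear (QTR4). The contrast is therefore at once acute phase against flanking times and front against rear glands, and these cannot be told apart. The injection was given in the evening just after the first biopsy, so the 0, 24 and 72 h samples share a time of day that the 12 h samples do not. Needle cores hold all cell types of the gland, and fewer cells of a type and less RNA per cell cannot be told apart in them.

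Glucocorticoids enter cells and bind the glucocorticoid receptor, which moves to the nucleus and raises or lowers the transcription of many genes, in part by contacting other transcription factors. In the lactating mammary gland they act with prolactin and insulin to maintain milk protein gene expression. The secretory epithelium devotes much of its messenger RNA to a small number of milk proteins. One of these, α-lactalbumin, joins a galactosyltransferase to form lactose synthase, and lactose draws water into milk. A high dose of glucocorticoid is known to reduce milk yield for a short time in cows. The deposited table lists genes by Ensembl identifier alone, and 0 of its 24616 identifiers could be paired with a symbol in the reference table used here. Genes are thus given by identifier or by rank, without a function, and the tissue label was not checked against marker genes.

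Between 1804120 and 6228132 reads per library were recovered from the deposited values. The acute libraries were deeper in 3 of 3 cows, with a median of 4752140 reads (range 4029166 to 6228132) against 3605598 (range 1804120 to 5685741) in the flanking libraries, a difference with a two-sided exact permutation p of 0.0926 within cows (adjusted p = 0.370 over 5 library measures). The scaling factor of the authors ranged from 0.955 to 1.142 in the acute and from 0.782 to 1.044 in the flanking libraries (exact permutation p = 0.148). The 20 most abundant genes held 80.5% ± 0.747 of reads in the acute and 80.5% ± 2.11 in the flanking libraries (SD, n = 6 each).

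Of the 13525 genes tested, 833 (6.16%) differed between the acute and flanking libraries at an adjusted p under 0.05 in limma with Benjamini-Hochberg adjustment, and 2333 had an unadjusted p under 0.05. Among the 833, 494 (3.65% of genes tested) were higher and 339 (2.51%) were lower in the acute libraries. The median log2 difference was 0.95 in the higher genes and -0.96 in the lower genes, against -0.0021 over all genes tested. The tails were unequal, as 45 higher genes and 7 lower genes differed by at least 2 on the log2 scale, and 10 and 1 by at least 3. The middle of the distributions was similar, with quartiles of 0.64 and 1.41 for higher genes and of -1.28 and -0.71 for lower genes. The smallest difference that passed the threshold was 0.35 upwards and 0.34 downwards.

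**Figure D1:**
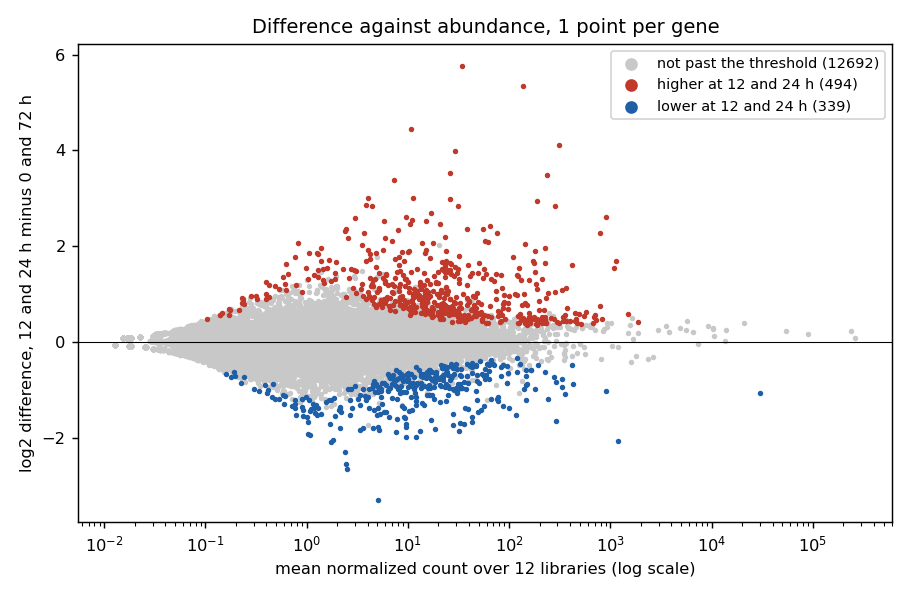
Log2 difference of the acute (12 and 24 h) minus the flanking (0 and 72 h) libraries against the mean normalized count over 12 libraries (log axis), 1 point per gene, with the 494 higher genes in red, the 339 lower genes in blue and all others in grey. The largest rise reached 5.77 and the largest fall -3.31. To the right of a mean of 1000, where 37 genes were tested, 4 were called higher and 2 lower.

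The largest rise belonged to ENSBTAG00000009870, which was nearly silent outside the acute phase. It had 35.2, 224 and 95.6 normalized counts at 12 h in cows 2, 3 and 4, and 11.01, 24.3 and 18.6 at 24 h. In the same cows it had 0, 0.301 and 0 at 0 h, and 0.408, 0.464 and 0.418 at 72 h. All 6 acute libraries thus lay above all 6 flanking libraries, and the 12 h value was the highest in every cow. The log2 difference of ENSBTAG00000009870 was 5.77 (SE 0.34, adjusted p = 1.05e-08 in limma). The flanking libraries held 7 reads of the gene in all and the acute libraries 1973, which is a ratio of 232.5 with a 95% exact interval of 112.6 to 579.1 that covers counting error only. Cow 3 weighed most on the level, since the acute mean of 68.2 ± 82.3 normalized counts (SD, n = 6) was 40.1 without that cow, while the log2 difference of cows 2, 3 and 4 was 4.91, 6.41 and 5.98.

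ENSBTAG00000009468 came next, and was expressed at a low level before and after. At 12 h it had 137.5, 446 and 328 normalized counts in cows 2, 3 and 4, and at 24 h 168, 187 and 331. The flanking values were 8.78, 10.2 and 19.1 at 0 h and 2.85, 4.33 and 1.045 at 72 h. The acute and flanking libraries did not overlap, and 12 and 24 h lay at about one level in cows 2 and 4. The log2 difference of ENSBTAG00000009468 was 5.34 (SE 0.30, adjusted p = 5.02e-09 in limma), and the read ratio was 41.8 (95% exact interval 35.5 to 49.6, counting error only). Its difference was 4.45 on the left side of the udder (12 h minus 0 h) and 6.23 on the right (24 h minus 72 h). A test between these differences, which also differ in the times sampled, gave an adjusted p of 0.253 in limma.

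The remaining 8 of the 10 largest rises ranged from 3.00 to 4.46 on the log2 scale. In all 10 genes the acute libraries lay above every flanking library, as they did in 1.96% of genes tested, and the highest adjusted p was 1.11e-05 in limma. These 10 were chosen as the largest rises in the same libraries, so the separation follows in part from the choice. The third largest rise had 24.5, 27.7 and 34.9 normalized counts at 12 h in cows 2, 3 and 4, then 14.3, 5.97 and 19.95 at 24 h, and between 0 and 1.045 in the flanking libraries. The fourth was the most abundant of the 10, with 482, 520 and 902 normalized counts at 12 h and 346, 443 and 823 at 24 h, against values of 7.46 to 80.5 at 0 and 72 h. The fifth had the smallest p of these 10 genes, with 76.9, 85.8 and 73.5 normalized counts at 12 h, 33.9, 34.1 and 26.97 at 24 h, and 2.04 to 4.63 at the flanking times (log2 difference 3.99, SE 0.18, adjusted p = 3.10e-10 in limma). The change was larger at 12 h than at 24 h in 9 of the 10 genes, and the test between these time points passed the threshold in 3 of them.

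ENSBTAG00000017328 had the largest fall and was scarce throughout. It had 16.7, 8.12 and 7.52 normalized counts at 0 h in cows 2, 3 and 4, and 7.34, 10.5 and 7.11 at 72 h. At 12 h these cows had 0.441, 0.410 and 0.200, and at 24 h 0, 0.640 and 1.89. No acute library reached any flanking library. The log2 difference of ENSBTAG00000017328 was -3.31 (SE 0.36, adjusted p = 9.89e-06 in limma), and cows 2, 3 and 4 gave -4.08, -3.26 and -2.60. With 15 reads in the acute and 236 in the flanking libraries, the flanking level was 19.1 times the acute level (95% exact interval 11.3 to 34.6, counting error only). The acute mean was 0.596 ± 0.669 normalized counts (SD, n = 6), and 0.373 without cow 4.

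ENSBTAG00000020527, with the second largest fall, was among the more abundant genes. It had 1618, 2039 and 1436 normalized counts at 0 h in cows 2, 3 and 4, and 2236, 2736 and 1112 at 72 h. It had 307, 237 and 204 at 12 h and 1164, 581 and 597 at 24 h. The groups overlapped through 1 pair, as cow 2 at 24 h lay above cow 4 at 72 h, although each cow's acute values were below its own flanking values. The log2 difference of ENSBTAG00000020527 was -2.06 (SE 0.21, adjusted p = 5.63e-06 in limma), and the level at 24 h was 1.59 above that at 12 h on the same scale (adjusted p = 0.0201 in limma). Its flanking level was 3.68 times its acute level by reads.

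**Figure D2:**
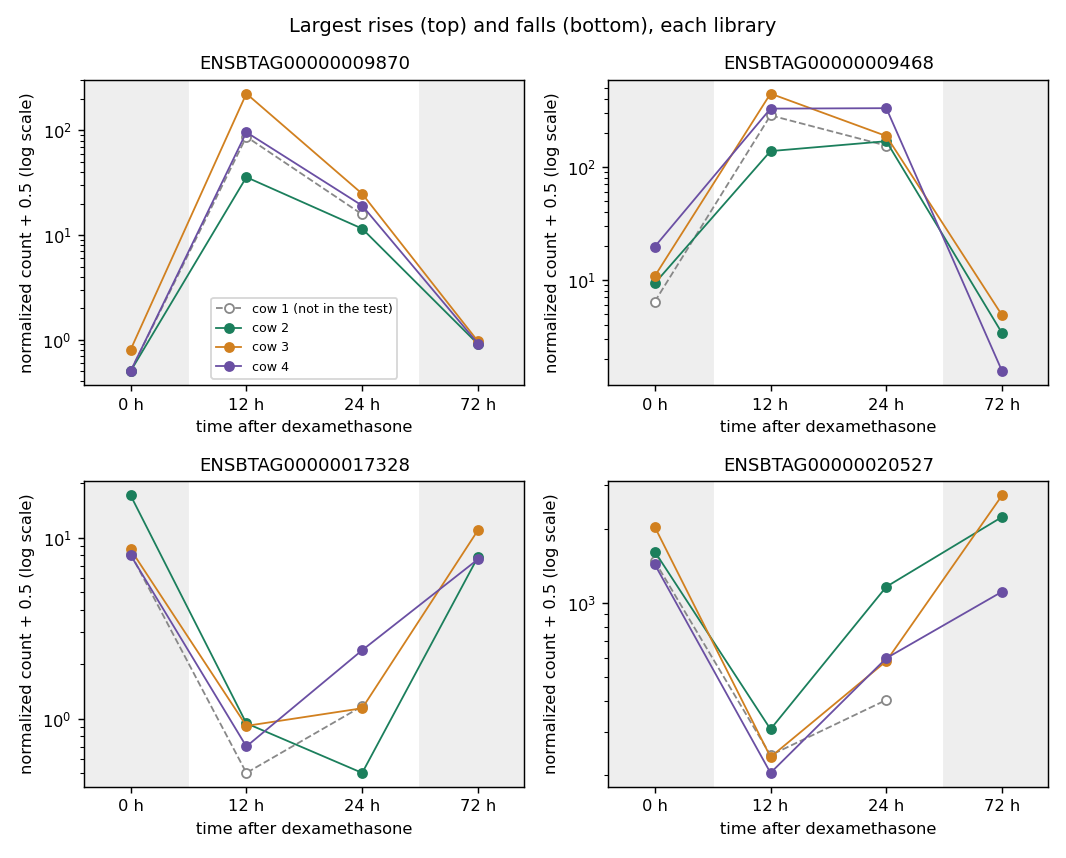
Normalized count + 0.5 (log axis) of the 2 genes with the largest rises (top) and the 2 with the largest falls (bottom) at each time after DEX, 1 point per library and 1 line per cow, with the flanking times shaded and cow 1, which was not tested, dashed. Every acute library of the top pair lies above the shaded libraries, and ENSBTAG00000020527 climbs from 204 to 307 at 12 h to 581 to 1164 at 24 h in cows 2 to 4.

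The other 8 of the 10 largest falls differed by -1.996 to -1.80, a narrower range than the rises, with adjusted p of at most 0.00181 in limma. The acute libraries lay below every flanking library in 7 of the 10, against 1.15% of genes tested. As with the rises, the 10 were chosen on the same libraries. The sixth largest fall had 6.61, 9.03 and 8.82 normalized counts at 12 h in cows 2, 3 and 4, 19.6, 26.6 and 15.9 at 24 h, and 36.7 to 63.1 at the flanking times. The fourth ran the other way in time, with 8.81, 5.33 and 3.41 normalized counts at 12 h, 2.20, 2.13 and 1.62 at 24 h, and 9.93 to 23.2 at the flanking times. The fall was larger at 12 h than at 24 h in 8 of these 10 genes, with the test between the time points passed in 2.

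Of the 20 genes with the highest mean, 1 passed the threshold. This count does not set them apart from all genes tested, of which 6.16% passed. Under the deposited scaling 18 of the 20 had a log2 difference above 0 and 2 below, ranging from -1.06 to 0.45. The median over all genes tested was -0.0021. The most abundant gene differed by 0.089 (SE 0.64, adjusted p = 0.958 in limma) and the second by 0.23 (SE 0.61, adjusted p = 0.872). Standard errors of this size leave room for a change in either direction. The gene that passed was the fifth most abundant, singled out after its values were seen. It had 45224, 34984 and 53965 normalized counts at 0 h in cows 2, 3 and 4 and 36270, 38601 and 33080 at 72 h, then 24644, 15743 and 22735 at 12 h, with 27368, 12327 and 16245 at 24 h. All 6 acute values were below all 6 flanking values. Its share of reads went from between 3.35% and 5.17% in the flanking libraries to between 1.29% and 2.47% in the acute libraries. The log2 difference was -1.06 (SE 0.30, adjusted p = 0.0423 in limma), with -0.64 in cow 2, -1.40 in cow 3 and -1.14 in cow 4, and it was close on the left (-1.09) and right (-1.03) of the udder. This call was near the threshold, since 14 of 19 other settings passed it and the adjusted p ranged from 1.18e-12 with DESeq2 to 0.285 without cow 3. It was also lost without cow 2 (0.0844), without cow 4 (0.266), with a 2-level phase factor (0.0967) and with a pseudocount of 0.1 (0.0559).

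The share of genes past the threshold grew with abundance up to a mean of 1000 normalized counts. It was 1.03% of 6007 genes with a mean under 1, 5.2% of 4596 genes from 1 to 10, 15.8% of 2572 genes from 10 to 100 and 38.3% of 313 genes from 100 to 1000. Above this, 6 of 37 genes (16.2%) passed. The median standard error of the difference was 0.208, 0.299, 0.158, 0.117 and 0.212 in these bands in turn. In genes with a mean under 1 the added 0.5 compresses values near 0, so their small standard error does not mean precise measurement. How far standard errors set the shares was not tested. The band from 100 to 1000 was also the most one-sided, with 95 higher and 25 lower genes, at median log2 differences of 0.55 and -0.84. The split in this band depended on the scaling of the libraries. It was 91 higher and 28 lower with median-ratio scaling, close to the deposited scaling, whereas 60 were higher and 47 lower when libraries were scaled by totals that omit the 20 most abundant genes, a setting added after the data were seen, and 46 were higher and 56 lower after quantile normalization.

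**Figure D3:**
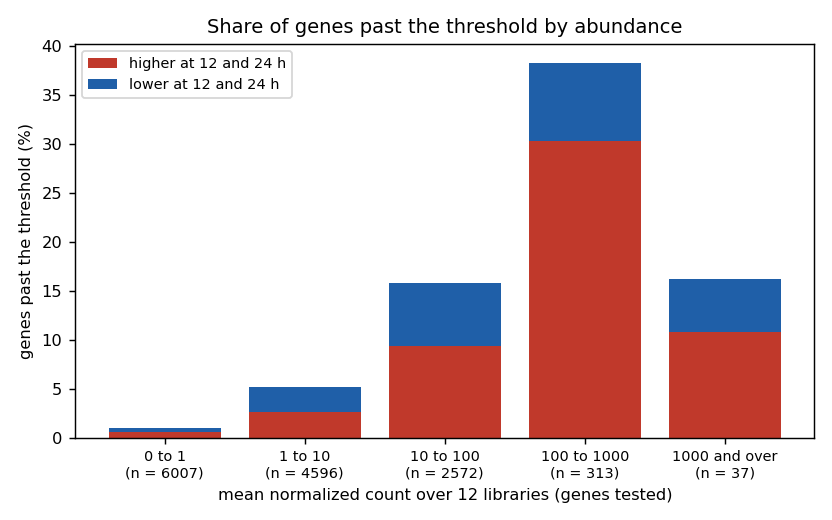
Share of tested genes past the threshold (%, bars from 0) by mean normalized count over 12 libraries, with the part higher at 12 and 24 h in red and the part lower in blue, and the number tested under each band. The bar for 100 to 1000 reaches 38.3% and is mostly red, under the deposited scaling.

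Over the whole comparison, higher genes stayed in the majority with median-ratio scaling (474 higher and 362 lower, 56.7% higher) and quantile normalization (426 and 388, 52.3%), and became the minority under the added scaling. With totals taken without the 20 most abundant genes, the log2 difference of the 2922 genes with a mean of at least 10 moved by a median of -0.13, and 344 genes were higher and 533 lower, so that the share of higher genes went from 59.3% to 39.2%. Under all 4 scalings tried (the deposited one, median-ratio, quantile and these totals), 329 genes were called higher and 317 called lower. ENSBTAG00000009870, ENSBTAG00000009468, ENSBTAG00000017328 and ENSBTAG00000020527 kept their direction and an adjusted p under 0.05 in each alternative of the pooled contrast in which they were tested.

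Together, the 494 higher genes summed to a median of 50973 normalized counts (range 48269 to 60242) in the acute libraries and 28676 (25912 to 30223) in the flanking libraries. The 339 lower genes summed to a median of 28205 (21564 to 38983) and 56063 (48794 to 70534). These sums describe genes that were chosen on the same libraries, and a large part of the second sum is the fifth most abundant gene.

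All 833 genes differed in the same direction in 3 of 3 cows, against 33.6% of all genes tested. The 833 were chosen on these same libraries, which largely sets this agreement. Medians by cow and the non-overlapping genes below share this limit. The median log2 difference of the higher genes was 0.91, 0.91 and 0.98 in cows 2, 3 and 4, and that of the lower genes was -0.86, -1.01 and -0.89. The count depended on each cow: without cow 2 it was 371, without cow 3 it was 347 and without cow 4 it was 404. All 6 acute libraries lay above or all below the 6 flanking libraries in 420 genes (3.11%), 265 above and 155 below, and 383 of these were among the 833. The other 37 of the 420 did not pass the threshold.

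**Figure D4:**
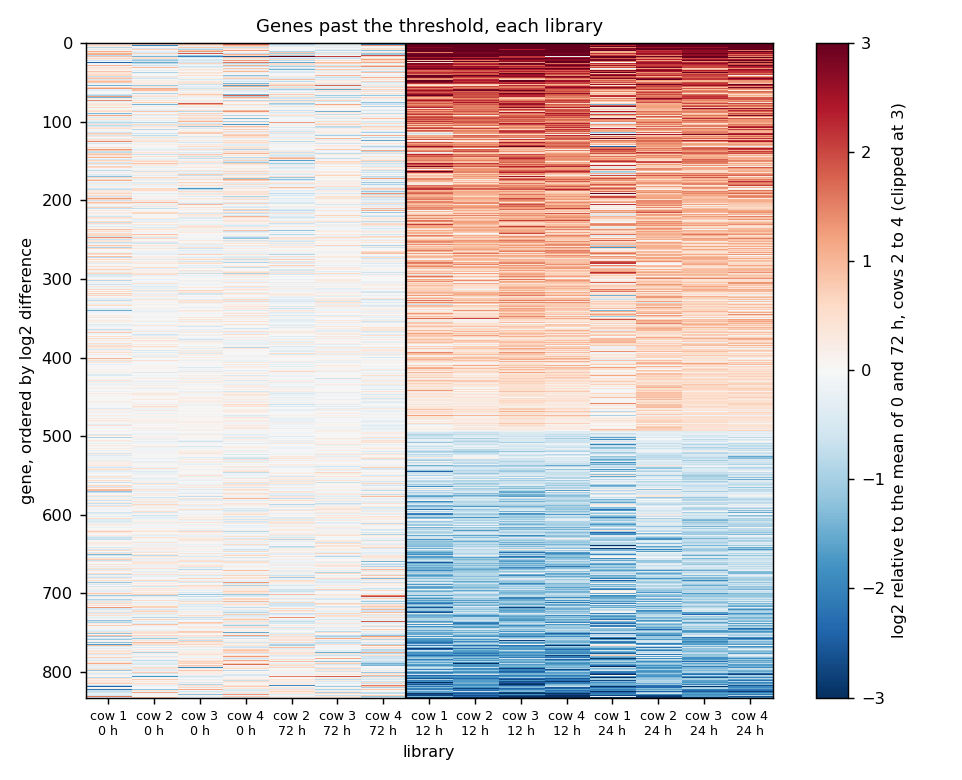
The 833 genes past the threshold (rows, ordered by log2 difference) in each library (columns), coloured by log2 level relative to the mean of the 0 and 72 h libraries of cows 2 to 4 and clipped at 3, with the flanking libraries left of the black line and the acute libraries right of it. The rows were chosen on cows 2 to 4, and the 3 columns of cow 1 were not used for the choice.

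Cow 1 gave a view of the genes in an animal outside the test, without a 72 h sample. The study withdrew a cow that stopped ruminating and later passed blood in its faeces, and does not number it; cow 1 is taken to be that animal because it alone lacks 72 h, so its 24 h library may come from a sick cow. Its acute libraries differed from its 0 h library in the direction of the other cows in 771 of the 833 genes (92.6%), against 61.4% of the 11704 tested genes with any difference in that cow. This was so for 449 of 494 higher genes and for 322 of 339 lower genes. The median log2 difference in cow 1 was 0.70 over all 494 and -1.02 over all 339. At 0, 12 and 24 h the scaling factor of cow 1 was 1.255, 1.066 and 0.808. The 20 most abundant genes held 84.5%, 80.7% and 77.6% of its reads at these times. Its 0 h factor was above the range of 0.782 to 1.142 in cows 2 to 4, and what this did to the differences was not tested. The 10 largest rises and the 10 largest falls all went the same way in cow 1. In the eighth largest fall this rested on a difference of -0.19, with 1.02, 1.29 and 0.503 normalized counts at 0, 12 and 24 h. At 0, 12 and 24 h in turn, the normalized counts of ENSBTAG00000009870 in this cow were 0, 86.5 and 15.2, those of ENSBTAG00000009468 5.88, 286 and 154, those of ENSBTAG00000017328 7.67, 0 and 0.670, and those of ENSBTAG00000020527 1479, 241 and 404. The fifth most abundant gene had 71146, 23280 and 13960 normalized counts in cow 1, and its 0 h value was above, and its 24 h value within, the range of the other cows at those times.

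The contrast can be split into a pair of differences that share no library, the left side of the udder (12 h minus 0 h) and the right side (24 h minus 72 h), each of a front against a rear gland. Fitted separately on 6 libraries each, the left side gave 677 genes (5.76%) and the right side 388 genes (3.3%) of the 11748 tested on both. A total of 180 genes (1.53%) passed on both sides in one direction, 134 higher and 46 lower, which is 26.6% of the left list and 46.4% of the right list. Of the genes called on the left, 565 (83.5%) had the same direction on the right. Over all 677, the median on the right, counted in the direction of the left, was 0.62 against 1.26 on the left. Of those called on the right, 324 (83.5%) had the same direction on the left. Over all 388, the median on the left, counted in the direction of the right, was 0.75 against 1.31 on the right. Over all genes tested on both sides the share was 55.8%. Libraries of the same 3 cows enter both fits.

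The left-side difference was tested against the right-side difference, as (12 h minus 0 h) minus (24 h minus 72 h). This is not a comparison of left glands with right glands. Side of the udder, time after DEX, time of day and flanking time all enter it, and these cannot be told apart. In limma 19 genes (0.14%) had an adjusted p under 0.05, with 1519 under 0.05 before adjustment, and the size of this side difference ranged from 1.33 to 3.71 on the log2 scale. In 15 of the 19 the left and right differences had opposite signs. The 19 genes included 6 of the 833, each with the larger difference on the left. The count was unstable, with 0 genes when any 1 cow was left out and 177 with DESeq2.

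**Figure D5:**
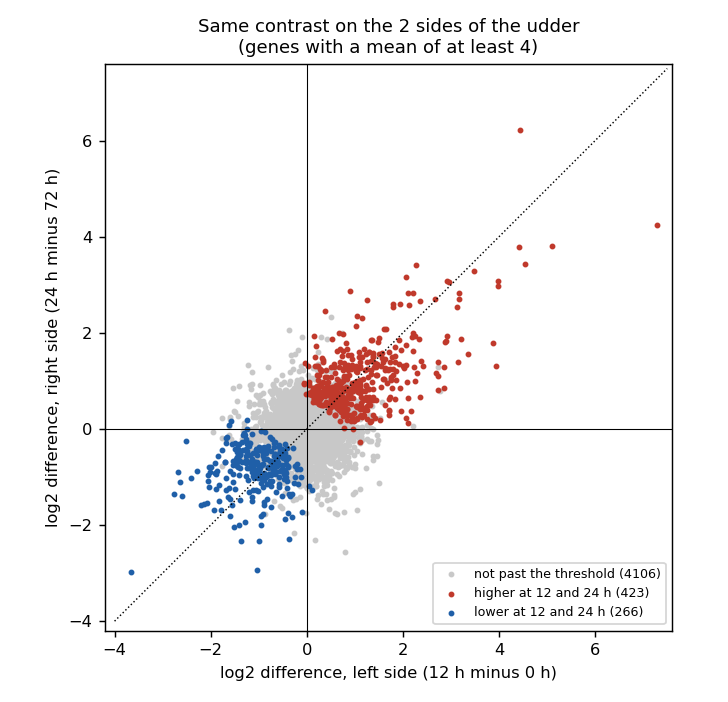
Log2 difference on the right side of the udder (24 h minus 72 h) against that on the left side (12 h minus 0 h) for genes averaging 4 or more normalized counts, 1 point per gene, in red or blue where the average of both axes passed the threshold and in grey otherwise, with a dotted line of equality. The colours were assigned from the average of the axes, so red points lie to the upper right by choice; the point farthest right is ENSBTAG00000009870, at 7.29 on the left and 4.24 on the right.

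Each time point on its own gave fewer genes than the pooled contrast in the same limma fit. Against 0 h, 525 genes (3.88%) passed at 12 h and 312 (2.31%) at 24 h, and against 72 h 490 (3.62%) and 482 (3.56%) passed. These comparisons share libraries with the pooled contrast and with each other. The standard error of the pooled difference had a median of 0.22 over all genes, against 0.32 for 12 h minus 0 h. The 12 h libraries alone against the mean of 0 and 72 h gave 662 genes, and the 24 h libraries alone, for which all 3 time points were sampled at one time of day, gave 591. In the 494 higher genes the median difference from the mean of 0 and 72 h was 1.00 at 12 h and 0.90 at 24 h, and in the 339 lower genes it was -1.05 and -0.88.

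The acute phase was not uniform. The change at 12 h was larger than that at 24 h in 480 of the 833 genes, 270 of them higher and 210 lower. This count was not taken over all genes tested, so whether it departs from the background was not tested. A test of 24 h against 12 h passed the threshold in 44 of the 833 (5.28%), compared with 0.702% of all genes tested. That background is not matched in abundance, as it includes 6007 genes with a mean under 1. Of the 44, 40 had the larger change at 12 h. In 4 of the 44 the change at 24 h had the opposite sign to that at 12 h. The 12 and 24 h libraries differ at once in gland, in time since DEX and in time of day, which cannot be told apart.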

How the data were processed

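QuantSeq FWD libraries, which read the 3′ end of each transcript, were made from mammary RNA of 4 cows. The authors trimmed reads with HTStream, aligned them with STAR (version 2.6.0c per the labels) to Bos taurus UMD3.1 with Ensembl annotation and counted them per gene. The deposited values are normalized counts, a signal equal to reads scaled to CPM with 1 scaling factor per library, and edgeR's TMM on the recovered reads gave these factors to within 9.79e-08%. Whole reads were recovered from 100% of values (tolerance 0.01 read). Groups came from the labels, and all columns were mapped.

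limma (version 3.58.1, R 4.3.3; lmFit, eBayes with trend) was run on log2(normalized count + 0.5) of 12 libraries with time point as a 4-level factor and within-cow correlation from duplicateCorrelation (0.0179), for the 13525 genes with a read. Fold changes on this scale understate those of low genes. Libraries of a cow come from the same animal, which pairs them. Across 2922 genes, deviations from time point means correlated positively between libraries of one cow in 18 of 18 pairs (lowest 0.209). This is a likeness of whole profiles, a different quantity from the within-gene 0.0179 that the fit used. Library measures were compared by exact permutation within cows (216 arrangements, smallest p 0.00926). In simulated data for this comparison (13042 genes) the test called 73 of 100 genes given a 2-fold change, 100 of 100 given a 4-fold change and 5 unchanged genes. The changed genes were drawn only from those with more reads, and no cow effect was simulated. These shares therefore do not hold for scarce genes, which are many of those tested. Other settings covered scaling, pseudocount, filter, depth, block, samples and tool, the last including DESeq2 1.42.0 and edgeR 4.0.16 run on recovered reads.

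The genes to name were set as the 2 largest rises and the 2 largest falls past the threshold among genes averaging 4 or more normalized counts with one direction in 3 of 3 cows. Lists by symbol, cell type markers and promoter motifs were not analysed here, as identifiers were not paired with symbols. The comparison and lists were chosen with earlier results of these data known. Replicates are separate cows. In the shallowest library 3 reads, the limit that a count of 0 allows, are 1.74 normalized counts. Such limits and all intervals cover counting error alone, because no molecular identifiers are described and reads may be copies of one molecule.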

Additional observations from a re-analysis of the deposited data

Results flagged for a closer look

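The 6 acute and the 6 flanking libraries were searched for a library standing well apart from its group, in 18 groups of values, of which 2 exceeded Dixon's critical value of 0.625, where chance gives about 5% of groups. Both concern ENSBTAG00000017328: cow 4 at 24 h had 1.89 normalized counts against at most 0.640 in the other acute libraries (gap over range 0.661), and cow 2 at 0 h had 16.7 against at most 10.5 in the other flanking libraries (gap over range 0.643). These values rest on 7 and 76 reads.

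The side difference, (12 h minus 0 h) minus (24 h minus 72 h), mixes side of the udder with the times sampled. It passed the threshold in 19 genes in limma, 12 with a positive and 7 with a negative value. None of the 10 largest rises or 10 largest falls of the acute phase was among them, though the unadjusted p of the side difference was 3.43e-04 for ENSBTAG00000009870 (adjusted p = 0.0963 in limma, side difference 3.05).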

How the results depend on the processing

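Leaving out a cow gave 347 to 404 genes in all, 225 to 254 higher and 113 to 150 lower, 0 genes for the side difference and 902 to 1054 genes without overlap; fewer libraries have to be ordered in the last. The lower genes numbered 559 with edgeR, 533 with totals without the 20 most abundant genes (added after the data were seen) and 211 at 24 h alone. The left side in the shared fit gave 525 genes (307 higher, 218 lower) and the right side 482 (323 and 159), each from 6 libraries. In the other settings the total stayed within 1.5 times 833, from 591 with a 2-level phase factor and the replicate block to 1212 with edgeR. The pairing changed no total by over 1.5 times: 799 with no replicate block, 1033 with cow as a fixed term and 947 on per-cow differences. Thinning to 1804120 reads gave 640, of which 574 were among the 833.

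The side difference was least stable, with 2 genes under a constant prior variance, 10 with a pseudocount of 2, 11 after quantile normalization, 29 with totals without the 20 most abundant genes, 30 with a pseudocount of 0.1, 54 with limma-voom, 87 with a mean of at least 10, 84 with cow 1 added, 166 with edgeR and 177 with DESeq2. With the replicate block as a fixed term it was 81. Genes without overlap numbered 278 with cow 1 added and 267 with a mean of at least 10, by construction fewer. Beyond these, the cause was not tested. The named genes reversed in no setting, and ENSBTAG00000017328 fell outside the filter at a mean of 10. Their log2 differences ranged from 4.23 to 7.66 for ENSBTAG00000009870, 4.94 to 5.62 for ENSBTAG00000009468, -4.51 to -2.14 for ENSBTAG00000017328 and -2.28 to -1.76 for ENSBTAG00000020527. Of the genes with a mean under 1, 1.03% passed, and the part of depth in this share was not tested.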
